A study of Homo sapiens with 9 samples.

Results

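This report concerns 10 genes of redox defence: NFE2L2, which encodes the transcription factor NRF2, its target genes HMOX1, NQO1, GCLM, GCLC, TXNRD1, SRXN1 and TXN, the thioredoxin inhibitor TXNIP and the lipid peroxidase GPX4. They were taken by name, with earlier results of these data known. Each gene was read from the transcript cluster that carries its symbol alone, the brightest on average where a gene has several. Of the 10 genes, 9 had such a cluster and each had a single one. SRXN1, which restores overoxidised peroxiredoxins, shares its cluster with another gene and was not analysed. The 9 genes stand among 15842 tested.

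The cells were MM.1S, an established human multiple myeloma line, exposed for 24 h to 5 nM HL13, 5 nM LBH589 or the solvent DMSO, with 3 arrays in each group. LBH589, also called panobinostat, inhibits histone deacetylases, and HL13 is known from the labels by its code alone. Replicates are labelled as biological without mention of separate cultures, so p values measure the spread between these arrays, which may be technical. A single line, dose and time were used. All values are log2 intensities of an Affymetrix transcriptome array as deposited, where 1 unit is a doubling. The array medians over all probes lay between 5.33 and 5.38. All 10 plasma cell markers read lay above the median of every array, but their levels moved. With each compound 9 of the 10 fell against DMSO and CD38 rose (log2 fold change ± standard error 1.43 ± 0.039 with HL13, 0.65 ± 0.039 with LBH589). The falls with HL13 ran from -0.12 for IRF4 to -4.49 for TNFRSF17, and those with LBH589 from -0.21 for JCHAIN to -4.56 for TNFRSF17, on the log2 scale. Of markers of other cells, 2 of 5 for T cells, 3 of 5 for monocytes and 3 of 5 for stroma and endothelium lay above the median on all 9 arrays, and CD3D, CD3G, CD2, CD14, LYZ and DCN did on none. The part of these markers in the results was not tested.

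NRF2 is held at a low level by KEAP1, which passes it to a CUL3 ubiquitin ligase for destruction. Oxidants and electrophiles release it, and NRF2 then pairs with a small MAF protein on antioxidant response elements, DNA sites that the repressor BACH1 can also occupy. Its targets make glutathione, keep thioredoxin reduced, break down heme and supply NADPH. Because NRF2 is controlled mainly through the stability of its protein, the RNA level of NFE2L2 is not a measure of its activity. Plasma cells and myeloma cells make large amounts of disulfide-bonded antibody and depend on these systems.

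HL13 raised TXNIP 3.72-fold and LBH589 raised it 3.79-fold, and no other member moved as far with either compound. Apart from NQO1 with LBH589, the other members changed by less than 1.5-fold, and they did not run in a single direction. With HL13, TXNIP, GCLC, HMOX1, GPX4 and NFE2L2 rose and GCLM, NQO1, TXN and TXNRD1 fell. NQO1 was the member on which the compounds differed most, with a mean of 7.22 on HL13 arrays, 6.66 on LBH589 arrays and 7.59 on DMSO arrays. In bulk RNA, fewer cells with a transcript and less of it per cell cannot be told apart.

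Against DMSO, 9 of 9 measured members passed the test with HL13, 5 higher and 4 lower, where 58.2% of all 15842 genes did so (29.5% higher and 28.7% lower). None of the 9 had HL13 values that overlapped those with DMSO, as was so for 66.6% of all genes. With LBH589, 6 of 9 passed, 3 higher and 3 lower, beside 54.2% of all genes (28.1% higher and 26.1% lower). Arrays of LBH589 and DMSO did not overlap for 6 members and for 57.5% of all genes. The median absolute log2 fold change of the members was 0.34 with HL13 and 0.17 with LBH589, against 0.17 and 0.15 over all genes tested. These shares are read beside a background in which most genes passed. The adjusted p values come from limma over all genes, and ± is the standard error of a log2 fold change with n = 3 arrays per group.

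**Figure D1:**
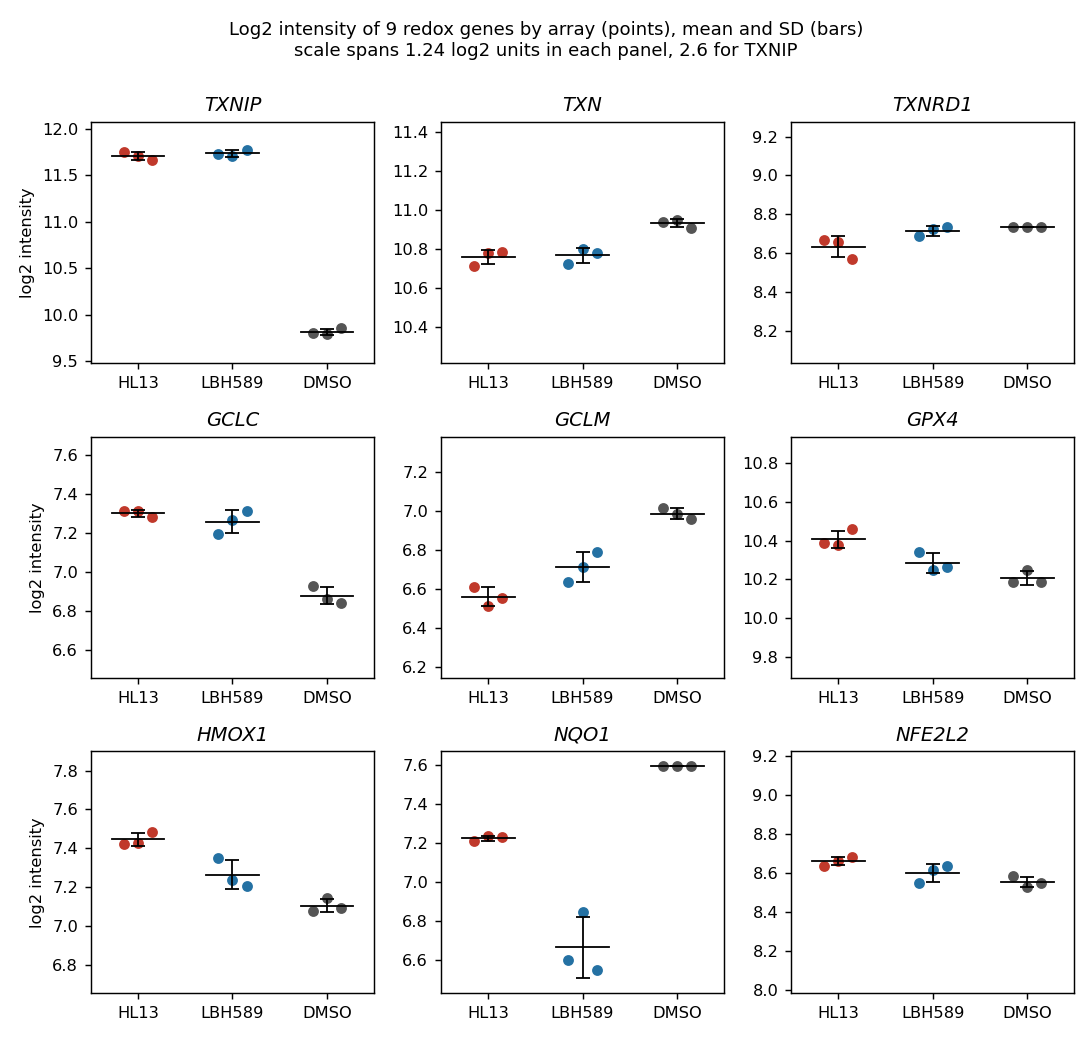
Log2 intensity (vertical axis) of the 9 measured genes on each array, with HL13, LBH589 and DMSO from left to right. Points are arrays, the horizontal line is the group mean and the error bar its SD (n = 3). TXNIP stands apart from DMSO in both treated groups, and NQO1 is lowest and most scattered with LBH589.

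TXNIP (transcript cluster TC01001090.hg.1) encodes an alpha-arrestin that binds reduced thioredoxin and blocks it, and that also limits glucose uptake. Its values were 11.75, 11.71 and 11.67 on the HL13 arrays, 11.73, 11.70 and 11.77 on the LBH589 arrays and 9.80, 9.79 and 9.85 on the DMSO arrays. Every treated array thus lay well above every DMSO array. The log2 fold change was 1.89 ± 0.035 for HL13 (adjusted p 5.2e-11) and 1.92 ± 0.035 for LBH589 (adjusted p 7.7e-11). Among all genes tested, the rise ranked 76 with HL13 and 31 with LBH589. The groups of HL13 and LBH589 overlapped, and the difference between them, -0.027, had a 95% interval of -0.10 to 0.051 (adjusted p 0.636). The interval allows a difference of at most 0.10 in either direction at this dose.

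TXNIP is known as a target of MondoA (MLXIP) and its partner MLX, which bind a carbohydrate response element in its promoter. The RefSeq promoter is shown because it holds that element. It is printed from 250 bases before to 50 after the start site in the direction of the gene (GRCh38.p14, chr1:145996530-145996829, minus strand), with the element in capitals.
TXNIP start 1: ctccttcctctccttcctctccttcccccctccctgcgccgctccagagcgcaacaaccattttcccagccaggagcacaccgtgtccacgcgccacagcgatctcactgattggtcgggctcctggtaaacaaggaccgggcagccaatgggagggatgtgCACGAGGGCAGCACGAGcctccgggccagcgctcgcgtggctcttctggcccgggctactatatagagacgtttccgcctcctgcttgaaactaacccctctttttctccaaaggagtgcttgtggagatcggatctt
The element lay at bases -88 to -72 from the start site. It was searched as a pair of sites 5 bases apart, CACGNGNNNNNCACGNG, on both strands, and was found in 20 of 35116 RefSeq promoters of the same length (0.057%). This search was added after the values had been seen. The downstream start of TXNIP and the promoter of ARRDC4, a related gene, held no match. The TXNIP element was known beforehand, so its match and the 0.057% are a description of the sequence only.

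The related alpha-arrestins tested rose with each compound, while RNA of MLXIP and MLX did not. The activity of MLXIP and MLX was not measured. ARRDC4, a related alpha-arrestin and another MondoA target, gave 6.94, 6.99 and 6.99 with HL13, 7.26, 7.30 and 7.42 with LBH589 and 6.02, 6.02 and 6.21 with DMSO. It rose by 0.89 ± 0.059 with HL13 (adjusted p 3.1e-07) and by 1.25 ± 0.059 with LBH589 (adjusted p 3.2e-08). Unlike TXNIP, ARRDC4 was lower with HL13 than with LBH589, by a log2 difference of -0.35 ± 0.059 (adjusted p 0.00110). ARRDC3, a tumour suppressor of the same family, rose by 0.54 ± 0.040 with HL13 and 0.44 ± 0.040 with LBH589, and its relative ARRDC2 by 0.17 ± 0.047 with HL13 and 0.13 ± 0.047 with LBH589. ARRDC1 rose by 0.11 ± 0.033 with HL13 and 0.20 ± 0.033 with LBH589. MLXIP itself changed by -0.021 ± 0.035 with HL13 (adjusted p 0.651) and 0.053 ± 0.035 with LBH589 (adjusted p 0.247), and MLX fell with HL13 (-0.20 ± 0.033) and with LBH589 (-0.14 ± 0.033). Of the 7 genes listed for this arm, 4 rose and 1 fell with each compound. The 3 genes whose values followed TXNIP most closely over the 9 arrays were APLP2, KDM5B and CBLB (Pearson r 0.999 each), but 1290 genes had an r above 0.95, since the points are mainly treated against untreated.

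The partners of TXNIP moved little. TXN (TC09001473.hg.1), the thioredoxin that reduces protein disulfides, read 10.71, 10.78 and 10.78 with HL13, 10.72, 10.80 and 10.78 with LBH589 and 10.94, 10.95 and 10.91 with DMSO. All treated arrays were below all DMSO arrays, by -0.17 ± 0.034 for HL13 (adjusted p 0.00110) and -0.17 ± 0.034 for LBH589 (adjusted p 0.00165). With quantile normalization the values were -0.11 for HL13 (adjusted p 0.0123) and -0.081 for LBH589, where the call was lost (adjusted p 0.0546). HL13 and LBH589 did not differ on TXN beyond their spread (-0.0082, 95% interval -0.083 to 0.067, adjusted p 0.895). The ratio of TXNIP to TXN on an array, computed after the values were known, rose 4.19-fold with HL13 and 4.25-fold with LBH589, with no overlap with DMSO. An exact permutation test (two-sided) of each gave p 0.1, the smallest that 3 against 3 arrays can give. As TXNIP and TXN had each separated from DMSO, in opposite directions, this p was fixed in advance and adds no support.

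TXNRD1 (TC12000810.hg.1) encodes the selenoenzyme that reduces thioredoxin with NADPH. Its HL13 values were 8.67, 8.66 and 8.57, its LBH589 values 8.69, 8.72 and 8.74, and its 3 DMSO values were 8.74. The 3 DMSO arrays and 1 LBH589 array carried exactly the same deposited value, so the DMSO group had an SD of 0. Such repeats were common: 33.1% of genes tested had at least 1 among the 9 arrays, and for 1.6% the 3 DMSO arrays were equal. Among the members, NFE2L2, NQO1 and GCLC held repeats as well. The part of such repeats in the calls was not tested. The HL13 group was lower than DMSO by a small amount (-0.10 ± 0.034, adjusted p 0.0211), and LBH589 did not pass (-0.021 ± 0.034, adjusted p 0.664), a value that turned to 0.037 with quantile normalization (adjusted p 0.365).

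The HL13 call on TXNRD1 was a weak one. It was lost with quantile normalization (-0.032, adjusted p 0.398), with replicate numbers as a block (adjusted p 0.0512) and without HL13 replicate 3 (-0.074, adjusted p 0.0858), DMSO replicate 2 (adjusted p 0.0529) or DMSO replicate 3 (adjusted p 0.0518). Over the 17 alternatives its adjusted p ran from 0.0135 to 0.398. HL13 and LBH589 differed on TXNRD1 by -0.084 (95% interval -0.16 to -0.0086), which did not pass over all genes (adjusted p 0.0870) although the arrays did not overlap.

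TXNRD1 is a known NRF2 target, and its promoters held the core of the antioxidant response element, TGACNNNGC, which was searched on both strands. The promoter of its downstream start is shown with the match in capitals (GRCh38.p14, chr12:104286782-104287081, plus strand).
TXNRD1 start 2: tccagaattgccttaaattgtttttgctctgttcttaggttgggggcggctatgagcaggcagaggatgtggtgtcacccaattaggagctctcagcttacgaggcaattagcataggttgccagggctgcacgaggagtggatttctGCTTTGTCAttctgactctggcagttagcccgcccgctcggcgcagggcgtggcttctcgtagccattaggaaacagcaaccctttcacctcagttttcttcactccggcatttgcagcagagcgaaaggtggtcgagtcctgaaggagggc
The capitals are the core as read on the opposite strand, at bases -102 to -94. The upstream start of TXNRD1 had matches at -99 to -91 and at -8 to 1. The core was present in 13.3% of all 35116 promoters of this length.

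Glutathione synthesis showed opposite changes in the subunits of its first enzyme. Glutamate-cysteine ligase has a catalytic subunit, GCLC (TC06004051.hg.1), and a modifier subunit, GCLM (TC01002882.hg.1), that makes it more efficient. GCLC read 7.31, 7.31 and 7.28 with HL13, 7.20, 7.27 and 7.31 with LBH589 and 6.93, 6.86 and 6.84 with DMSO. GCLM went the other way, at 6.61, 6.51 and 6.56 with HL13, 6.63, 6.71 and 6.79 with LBH589 and 7.01, 6.98 and 6.96 with DMSO. For both genes, no treated array overlapped the DMSO arrays.

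GCLC rose by 0.42 ± 0.037 with HL13 (adjusted p 2.9e-06) and 0.38 ± 0.037 with LBH589 (adjusted p 7.7e-06). Its difference between HL13 and LBH589 was 0.043 (95% interval -0.041 to 0.13, adjusted p 0.453). GCLM fell with HL13 (-0.42 ± 0.044, adjusted p 1.0e-05) and with LBH589 (-0.27 ± 0.044, adjusted p 3.2e-04). These 4 changes passed in all 17 alternatives. The ratio of GCLC to GCLM on an array, also computed after the values were known, rose 1.80-fold with HL13 and 1.57-fold with LBH589 (exact permutation p 0.1 for each, two-sided, the smallest possible). Because each gene had already separated from DMSO, in opposite directions, this p was fixed in advance and adds no support.

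GCLM was lower with HL13 than with LBH589 (-0.15 ± 0.044, adjusted p 0.0228) and their arrays did not overlap. That call was lost without HL13 replicate 2 (-0.13, adjusted p 0.0922), HL13 replicate 3 (adjusted p 0.0639), LBH589 replicate 2 (adjusted p 0.0622) or LBH589 replicate 3 (-0.11, adjusted p 0.0604), with only the 6 arrays of these groups (adjusted p 0.0506) and with replicate numbers as a block (adjusted p 0.0524). The genes most like GCLM over the 9 arrays were TTF1 (Pearson r 0.995), EDEM3 (r 0.994) and RFC4 (r 0.992), among 623 genes with an r above 0.95. The promoter of GCLM is shown because it was, beside TXNRD1, the only member promoter with the antioxidant response element core (GRCh38.p14, chr1:93909381-93909680, minus strand).
GCLM start 1: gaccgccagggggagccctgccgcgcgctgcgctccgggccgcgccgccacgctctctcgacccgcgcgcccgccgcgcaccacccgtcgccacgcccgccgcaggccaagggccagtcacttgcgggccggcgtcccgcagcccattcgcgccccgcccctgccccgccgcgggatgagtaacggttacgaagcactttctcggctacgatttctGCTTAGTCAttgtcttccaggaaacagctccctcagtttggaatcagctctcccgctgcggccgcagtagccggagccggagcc
Its match, in capitals and again on the opposite strand, lay at bases -34 to -26.

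**Figure D2:**
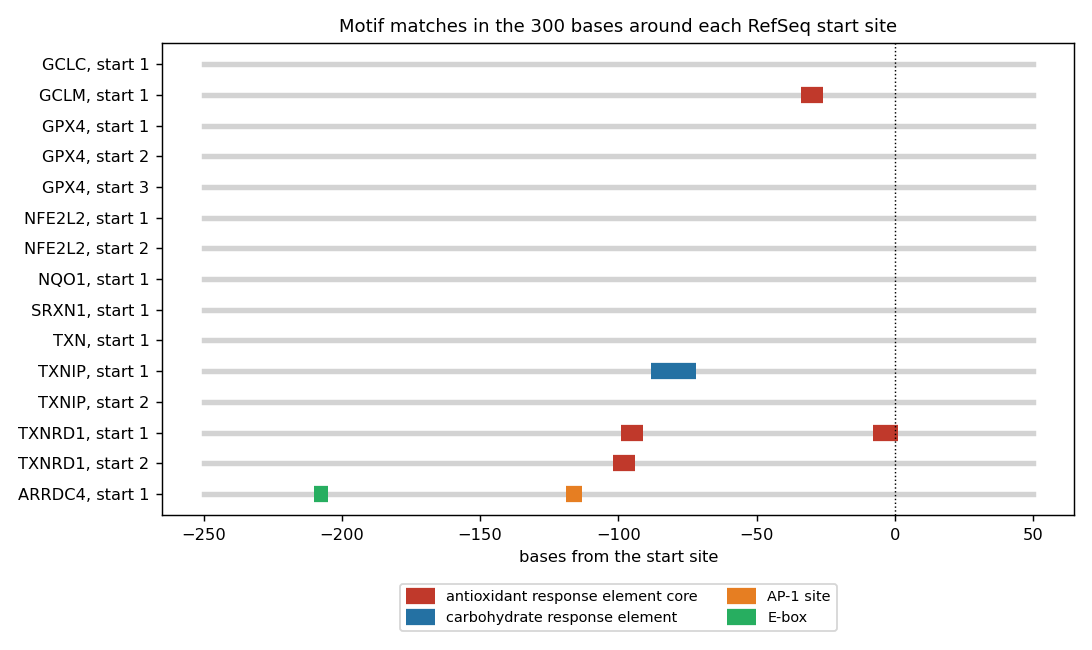
Matches to the antioxidant response element core, the carbohydrate response element, the AP-1 site TGACTCA and the E-box CACGTG in the 300 bases around each RefSeq start site of the members, with ARRDC4 in the lowest row. The horizontal axis is the distance in bases from the start site, grey bars are the windows searched, and coloured blocks are matches on either strand. Only GCLM, TXNRD1 and TXNIP among the members carry a match, and ARRDC4 has an E-box and an AP-1 site.

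Of the 10 genes, 9 matched the RefSeq promoter table with 14 start sites, all but HMOX1. The windows of GCLC, GPX4, NFE2L2, NQO1, SRXN1 and TXN held none of the 4 motifs, which says only that these letters are not in these 300 bases. The AP-1 site was present in 4.95% and the E-box in 7.26% of all promoters.

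GPX4 (TC19000030.hg.1) is a selenoenzyme that reduces lipid hydroperoxides in membranes with glutathione and so guards against ferroptosis, an iron-dependent form of cell death. It read 10.39, 10.38 and 10.46 with HL13, 10.34, 10.25 and 10.26 with LBH589 and 10.19, 10.25 and 10.19 with DMSO. The HL13 arrays lay above all others, and the LBH589 and DMSO arrays overlapped. GPX4 rose with HL13 (0.20 ± 0.038, adjusted p 9.5e-04). With LBH589 it did not pass (0.077 ± 0.038, adjusted p 0.117), although with quantile normalization it did (0.18, adjusted p 0.00361).

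GPX4 was higher with HL13 than with LBH589 by 0.12 ± 0.038 (adjusted p 0.0319). This call, too, was lost without HL13 replicate 1 (adjusted p 0.0588), HL13 replicate 3 (0.097, adjusted p 0.119), LBH589 replicate 2 (0.10, adjusted p 0.117) or LBH589 replicate 3 (0.11, adjusted p 0.0726). It was also lost with quantile normalization (0.098, adjusted p 0.103), with the 6 arrays alone (adjusted p 0.0560) and with replicate numbers as a block (adjusted p 0.0760).

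HMOX1 (TC22000259.hg.1) encodes heme oxygenase, which opens heme to biliverdin, carbon monoxide and iron and is among the most inducible NRF2 targets. It read 7.42, 7.43 and 7.48 with HL13, 7.35, 7.24 and 7.21 with LBH589 and 7.08, 7.14 and 7.10 with DMSO. The groups formed an order without overlap, HL13 above LBH589 above DMSO. The rise was 1.27-fold with HL13 (0.34 ± 0.041, adjusted p 3.6e-05) and 1.12-fold with LBH589 (0.16 ± 0.041, adjusted p 0.00752). The difference of HL13 from LBH589, 0.18 ± 0.041, passed as well (adjusted p 0.00688), and all 3 calls held in the 17 alternatives.

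NQO1 (TC16001225.hg.1) encodes a quinone reductase that is widely read as a marker of NRF2 activity. Its values were 7.21, 7.23 and 7.23 with HL13, 6.60, 6.84 and 6.55 with LBH589 and 7.59 on each of the 3 DMSO arrays. Its order was thus DMSO above HL13 above LBH589, again without overlap. NQO1 fell by 0.37 ± 0.064 with HL13 (adjusted p 5.0e-04) and by 0.93 ± 0.064 with LBH589 (adjusted p 5.0e-07), the LBH589 level being 0.525 times that with DMSO. It was higher with HL13 than with LBH589 by 0.56 ± 0.064 (adjusted p 9.8e-05), a 1.48-fold difference larger than that of 97.9% of genes tested.

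The LBH589 group had an SD of 0.16 for NQO1, against 0.013 with HL13 and 0.00045 with DMSO, because replicate 2 lay above the other LBH589 arrays. For NQO1, 2 DMSO arrays carried exactly the same deposited value, which limits what the DMSO SD can show. Over the alternatives, which include leaving out that array, the difference between HL13 and LBH589 ran from 0.50 to 0.65 and always passed. HMOX1 and NQO1, both NRF2 targets, therefore moved in opposite directions with each compound.

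NFE2L2 (TC02005045.hg.1) itself barely moved. It read 8.64, 8.66 and 8.68 with HL13, 8.55, 8.61 and 8.64 with LBH589 and 8.58, 8.53 and 8.55 with DMSO. The HL13 change was 0.11 ± 0.034 (adjusted p 0.0185), and that of LBH589, 0.046 ± 0.034, did not pass (adjusted p 0.294) except with quantile normalization (0.096, adjusted p 0.0152). The HL13 call was lost with arrays centred on their medians (0.078, adjusted p 0.114) and without DMSO replicate 2 (adjusted p 0.0686), HL13 replicate 2 (adjusted p 0.0544) or HL13 replicate 3 (adjusted p 0.0635). With quantile normalization it was 0.18 (adjusted p 3.1e-04). HL13 and LBH589 differed by 0.061 (95% interval -0.014 to 0.14, adjusted p 0.210).

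**Figure D3:**
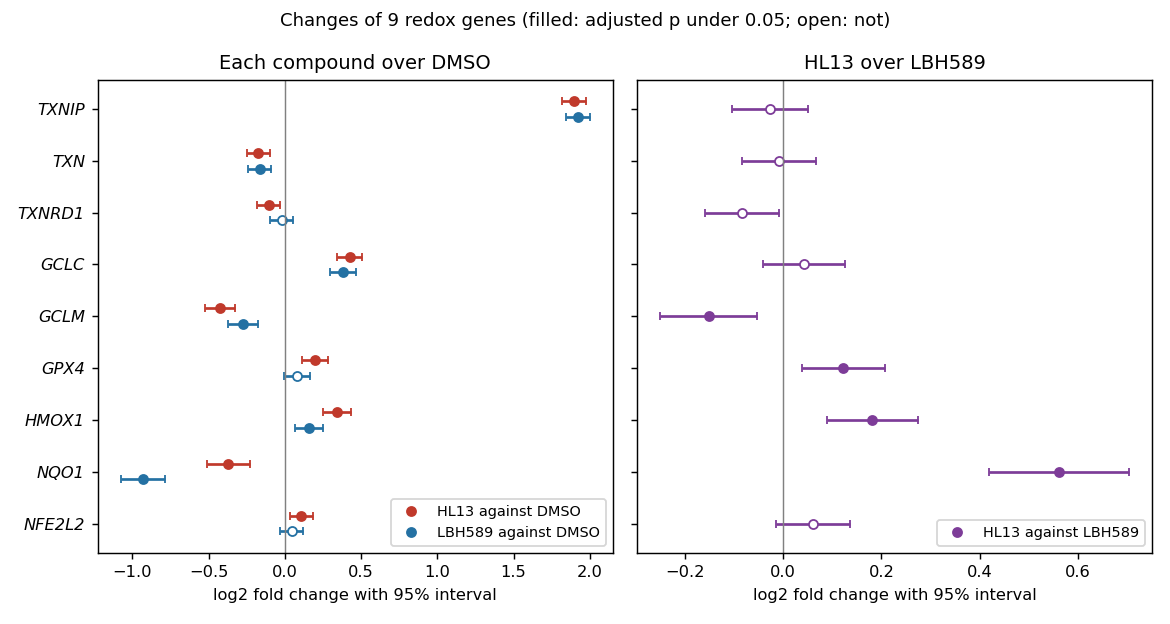
Log2 fold change (horizontal axis) with its 95% interval for the 9 measured genes, each compound over DMSO on the left and HL13 over LBH589 on the right, on different scales. Filled points passed an adjusted p of 0.05 and open points did not. TXNIP, TXN and GCLC lie close to 0 on the right, and NQO1 lies farthest from it at 0.56.

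Compared directly at the same dose and time, HL13 and LBH589 differed on 4 of the 9 members, with NQO1, HMOX1 and GPX4 higher and GCLM lower with HL13. Over all genes 32.6% passed, 15.7% higher and 16.9% lower, so the 44.4% among the members is read against a similar share. The arrays of HL13 and LBH589 did not overlap for 5 members and for 42.3% of all genes. Without HL13 replicate 3, LBH589 replicate 2 or LBH589 replicate 3, the count was 2 of 9, and it was also 2 with only the 6 arrays compared or with replicate numbers as a block. The comparisons of each compound with DMSO share their DMSO arrays and are not independent.

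Among the 9 tested genes that control NRF2, KEAP1 and SQSTM1 had the largest changes with each compound. KEAP1, the adaptor that marks NRF2 for destruction, read 7.87, 7.90 and 7.91 with HL13, 7.78, 7.54 and 7.54 with LBH589 and 8.66, 8.77 and 8.67 with DMSO. It fell by 0.80 ± 0.062 with HL13 (adjusted p 1.0e-06) and by 1.08 ± 0.062 with LBH589 (adjusted p 1.3e-07), and was higher with HL13 than with LBH589 (0.27 ± 0.062, adjusted p 0.00663). SQSTM1 encodes p62, an autophagy receptor that binds KEAP1 and draws it away from NRF2. It went the other way, reading 9.55, 9.55 and 9.56 with HL13, 9.32, 9.28 and 9.27 with LBH589 and 8.72, 8.77 and 8.68 with DMSO. Its rise was 0.83 ± 0.033 with HL13 (adjusted p 6.6e-09) and 0.57 ± 0.033 with LBH589 (adjusted p 1.5e-07). NFE2L1, a relative of NRF2 that governs proteasome genes, fell (-0.31 ± 0.035 with HL13, -0.39 ± 0.035 with LBH589), as did the small MAF gene MAFG (-0.30 ± 0.069 and -0.23 ± 0.069 for the same compounds). BTRC rose by 0.26 ± 0.042 with HL13 (adjusted p 3.0e-04) and by 0.40 ± 0.042 with LBH589 (adjusted p 1.3e-05). BACH2 rose by 0.14 ± 0.034 and 0.13 ± 0.034 for the same compounds, its 3 HL13 arrays carrying exactly the same deposited value. Of 9 control genes tested, 3 rose and 3 fell with each compound. BACH1 has no cluster of its own here and was not analysed.

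A wider set of 8 lists held 128 other NRF2 and redox genes, of which 116 had a cluster of their own and 109 were bright enough to test. With HL13, 50 rose and 35 fell, so 78% passed beside 58.2% of all genes. With LBH589, 47 rose and 35 fell, so 75.2% passed beside 54.2% of all genes. Their median log2 fold change was 0.061 with HL13 and 0.053 with LBH589, near those of all genes (0.0076 and 0.013). Between the compounds, 30 were higher and 20 lower with HL13 than with LBH589, 45.9% of the 109 beside 32.6% of all genes (15.7% higher and 16.9% lower). Like the members, these genes moved in both directions, on an array where most genes passed against DMSO. The lists were chosen with earlier results of these data known, so their shares are a description only.

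Among 22 other NRF2 targets tested, 8 rose and 8 fell with HL13, and 7 rose and 7 fell with LBH589. The carbonyl reductase CBR1 rose by 1.04 ± 0.029 with HL13 and 0.66 ± 0.029 with LBH589. The biliverdin reductase BLVRB rose by 0.93 ± 0.059 and 0.98 ± 0.059 in that order. BLVRA, the other biliverdin reductase, on the heme and iron list, moved little. It gave 0.079 ± 0.030 with HL13 (adjusted p 0.0438) and 0.051 ± 0.030 with LBH589 (adjusted p 0.192). AKR1C3, an aldo-keto reductase whose probes may also read its close relatives (0.84 ± 0.041 with HL13, 0.58 ± 0.041 with LBH589), and the epoxide hydrolase EPHX1 (0.75 ± 0.038 and 0.54 ± 0.038) rose as well. The peroxiredoxin PRDX1 rose with HL13 (0.59 ± 0.039) and with LBH589 (0.46 ± 0.039). These gains contrast with NQO1 and GCLM.

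Other targets fell or differed by compound. GSR, which regenerates reduced glutathione, fell (-0.33 ± 0.028 with HL13, -0.28 ± 0.028 with LBH589). SLC7A11, the cystine importer that feeds glutathione synthesis, fell with LBH589 (-0.21 ± 0.051, adjusted p 0.00522) and with HL13 gave -0.078 ± 0.051 (adjusted p 0.228). The difference between the compounds on SLC7A11 did not pass (0.13 ± 0.051, adjusted p 0.0795). SLC7A11 read 5.70, 5.70 and 5.54 with HL13, 5.47, 5.50 and 5.57 with LBH589 and 5.79, 5.71 and 5.67 with DMSO. These values lie little above the array medians (5.33 to 5.38), so the gene is a dim one. FTL, the ferritin light chain, rose with HL13 (0.36 ± 0.034, adjusted p 4.4e-06) and gave 0.084 ± 0.034 with LBH589 (adjusted p 0.0580), a difference that passed (0.28 ± 0.034, adjusted p 1.4e-04). FTH1 had no cluster of its own here.

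In glutathione synthesis and use, 8 of 21 genes tested rose and 8 fell with HL13, and 8 rose and 7 fell with LBH589. GSS, the enzyme that completes glutathione after GCLC and GCLM, fell by 0.87 ± 0.042 with HL13 (adjusted p 2.7e-08) and by 0.77 ± 0.042 with LBH589 (adjusted p 8.6e-08). The glutaredoxin GLRX rose (0.57 ± 0.044 and 0.52 ± 0.044 for the same compounds). ESD, which hydrolyses the glutathione adduct of formaldehyde, rose with HL13 (0.55 ± 0.047) and gave 0.043 ± 0.047 with LBH589 (adjusted p 0.497). GGCT fell with HL13 (-0.47 ± 0.064) and gave -0.082 ± 0.064 with LBH589 (adjusted p 0.331). HL13 and LBH589 differed on both genes (ESD 0.50 ± 0.047, adjusted p 2.5e-05, GGCT -0.39 ± 0.064, adjusted p 0.00109).

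Thioredoxin relatives, peroxiredoxins and methionine sulfoxide reductases gave 7 rises and 5 falls among 14 with HL13, and 8 rises and 6 falls with LBH589. PRDX3, the mitochondrial peroxiredoxin, read 10.05, 10.03 and 9.98 with HL13, 9.50, 9.58 and 9.68 with LBH589 and 10.38, 10.36 and 10.28 with DMSO. Like NQO1, it fell less with HL13 (-0.32 ± 0.049) than with LBH589 (-0.75 ± 0.049), and the difference passed (0.43 ± 0.049, adjusted p 1.0e-04). The peroxiredoxin PRDX6 instead rose with LBH589 (0.46 ± 0.037, adjusted p 1.6e-06) and gave -0.078 ± 0.037 with HL13 (adjusted p 0.0958). MSRA, which repairs oxidised methionine, fell by about the same amount with each compound (-0.52 ± 0.049 for both). MSRB3, of related function, rose (0.44 ± 0.050 with HL13, 0.13 ± 0.050 with LBH589). Its LBH589 call was near the threshold (adjusted p 0.0462), and its LBH589 arrays all carried exactly the same deposited value. The nucleoredoxin gene NXN rose by 0.32 ± 0.044 with HL13 and 0.13 ± 0.044 with LBH589.

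Of 12 genes for superoxide, peroxide and stress sensing, 6 rose and 3 fell with HL13, and 6 rose and 4 fell with LBH589. SESN3, a sestrin that restrains mTORC1, averaged 9.61 ± 0.048 with HL13, 9.70 ± 0.084 with LBH589 and 8.05 ± 0.047 with DMSO (SD, n = 3 each). It was the nearest to TXNIP in size on these lists, rising by 1.55 ± 0.047 with HL13 and 1.64 ± 0.047 with LBH589. The catalase gene CAT (0.54 ± 0.035 with HL13, 0.29 ± 0.035 with LBH589), the superoxide dismutase chaperone CCS (0.43 ± 0.044 and 0.36 ± 0.044) and SESN1 (0.42 ± 0.056 and 0.48 ± 0.056) rose too.

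Heme and iron genes, the surroundings of HMOX1, gave 9 rises and 3 falls among 13 with HL13, and 6 rises and 3 falls with LBH589. SLC40A1, the iron exporter ferroportin, read 7.43, 7.39 and 7.30 with HL13, 6.55, 6.47 and 6.58 with LBH589 and 5.99, 5.98 and 5.99 with DMSO. Its order matched that of HMOX1, HL13 above LBH589 above DMSO, with rises of 1.38 ± 0.042 for HL13 (adjusted p 1.0e-09) and 0.55 ± 0.042 for LBH589 (adjusted p 1.1e-06). The transferrin receptor TFRC, which imports iron, read 9.12, 9.10 and 9.02 with HL13, 8.48, 8.58 and 8.66 with LBH589 and 9.93, 9.99 and 9.92 with DMSO. It fell by 0.87 ± 0.049 with HL13 and by 1.38 ± 0.049 with LBH589. The heme synthesis genes ALAD (0.80 ± 0.046 with HL13, 0.86 ± 0.046 with LBH589) and CPOX (0.64 ± 0.031 for both) rose. UROD, of the same pathway, fell (-0.59 ± 0.041 with HL13, -0.24 ± 0.041 with LBH589).

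Ferroptosis and selenoprotein genes, which bear on GPX4 and TXNRD1, gave 5 rises and 4 falls among 11 with each compound. GCH1, which starts the synthesis of the antioxidant tetrahydrobiopterin, rose by 1.14 ± 0.051 with HL13 and 0.77 ± 0.051 with LBH589. LPCAT3, which puts polyunsaturated fatty acids into phospholipids, rose by 0.94 ± 0.033 with HL13 and 1.32 ± 0.033 with LBH589. DHODH, a mitochondrial enzyme of pyrimidine synthesis that also reduces ubiquinone, fell (-0.94 ± 0.050 with HL13, -0.74 ± 0.050 with LBH589). SEPHS1, a relative of selenophosphate synthetase, fell as well (-0.77 ± 0.035 and -0.92 ± 0.035). Each of these 4 genes differed between HL13 and LBH589, with an adjusted p of 0.0132 or smaller.

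**Figure D4:**
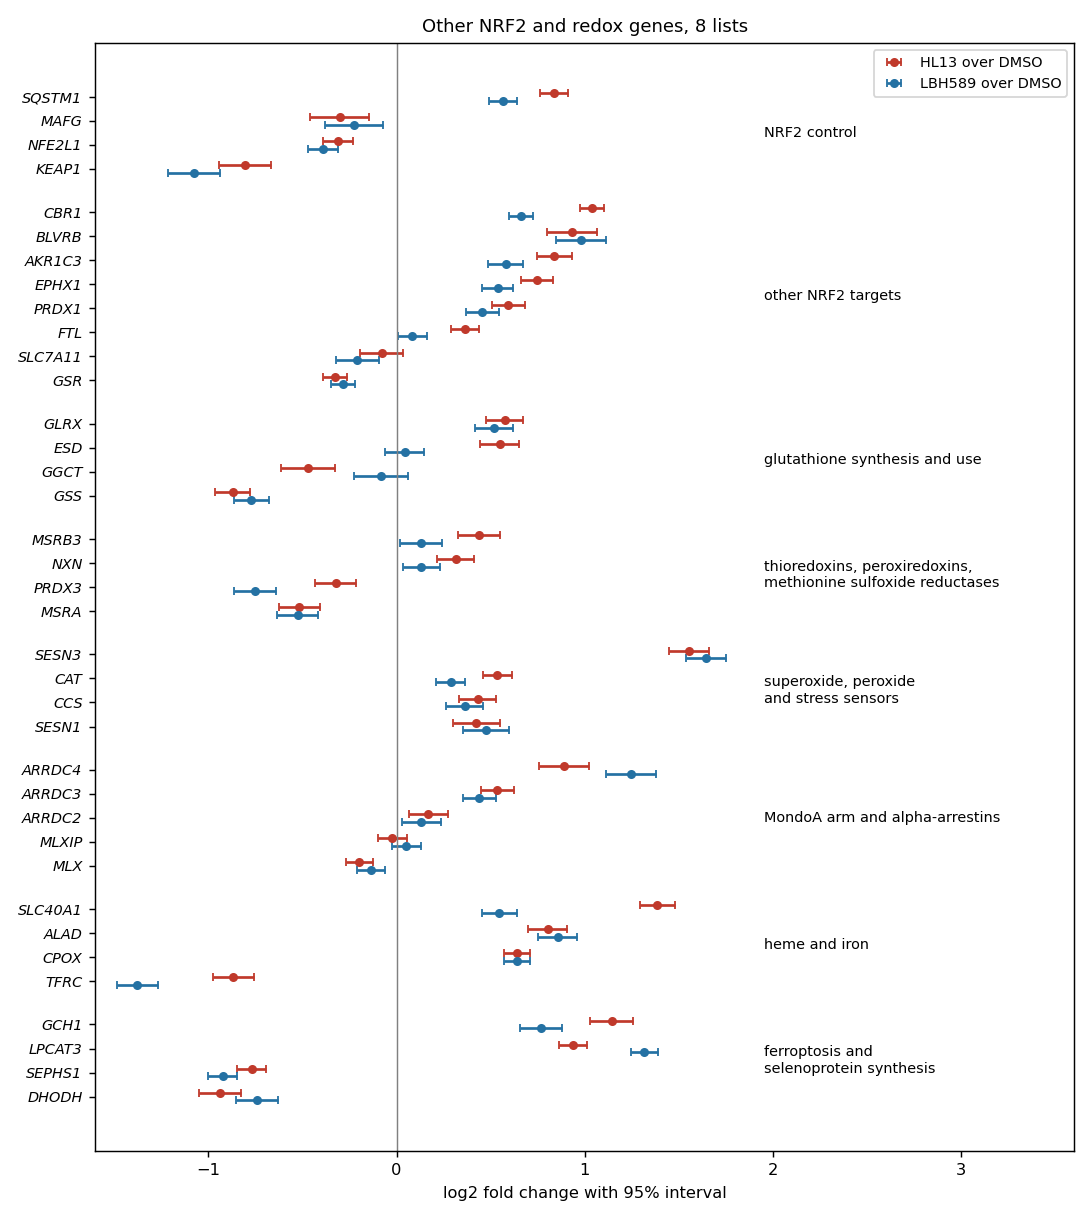
Log2 fold change (horizontal axis) with its 95% interval for the named genes of the 8 other lists, HL13 over DMSO in red and LBH589 over DMSO in blue. The sets share the DMSO arrays, and ARRDC1, BLVRA, UROD, BTRC, BACH2 and PRDX6 are not drawn. SESN3 at 1.55 and SLC40A1 at 1.38 are the largest rises with HL13, and KEAP1, GSS, TFRC and DHODH are among the falls.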

How the data were processed

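Total RNA of 9 MM.1S samples, 3 per group, was read on an Affymetrix Human Transcriptome array. The authors deposited 1 log2 value per transcript cluster and array. Their summarisation and normalization are not given in the sources used here, and base 2 was inferred from the values. A change common to most genes could be removed by such normalization. Precision is limited by the 3 arrays per group (the standard error of a fold change had a median of 0.043 on the log2 scale). No detection flags were used.

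Of 70523 clusters, 23781 carry 1 gene symbol, 1543 several and 45199 none, and only the first kind was used. Clusters exceeding their array's median in 3 or more arrays were kept, taking for each gene the brightest on average, which left 15842 genes. Group means were estimated jointly from the 9 arrays (limma 3.58.1, R 4.3.3, lmFit and eBayes, two-sided) with Benjamini-Hochberg adjustment over all genes and a threshold of 0.05. The study gives no method for arrays. The 17 alternatives changed the normalization, the filter, the summary of clusters, the variance model, the arrays fitted and the pairing, or left out 1 array. The procedure was tested on simulated data.

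The members and the 8 other lists were chosen with earlier results of these data known. All members were named, and of each other list up to 4 called genes with the largest HL13 changes, plus 11 genes set by name. PRDX1, FTL, GSR, SLC7A11 and MLXIP were among these. ARRDC1, BLVRA, UROD, BTRC, BACH2 and PRDX6 were named in addition, beside related genes. Promoters and motif searches used RefSeq sequences of GRCh38.p14.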

Additional observations from a re-analysis of the deposited data

How the results depend on the processing

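Of 459 member values under 17 alternatives, 431 kept their direction and their side of the threshold, 23 lost a call, 2 gained one and 3 changed sign. The calls that were lost are those of NFE2L2 and TXNRD1 for HL13 against DMSO, TXN for LBH589 against DMSO, and GCLM and GPX4 for HL13 against LBH589, as given above. With quantile normalization TXNRD1 for LBH589 against DMSO was 0.037 in place of -0.021, neither of them past the threshold. Leaving out 1 array, TXN for HL13 against LBH589 ranged from -0.030 to 0.014, again past no threshold. The count of members called was 7 to 9 for HL13 against DMSO and 6 to 7 for LBH589 against DMSO. For HL13 against LBH589 it was 4, and 3 with quantile normalization, 2 with only the 6 arrays compared or with the replicate block, and 2 to 4 with 1 array left out. No other count of members, of other redox genes or of all genes moved by more than 1.5 times. The cause of these changes was not tested. Under quantile normalization or median centring the median change of all genes stayed between -0.022 and 0.0016.

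The replicate numbers of the labels were not found to pair the arrays: same-numbered arrays had correlations of their deviations from -0.067 to 0.061 for HL13 and DMSO, -0.26 to -0.0053 for LBH589 and DMSO and -0.30 to -0.090 for HL13 and LBH589. Some differently numbered arrays correlated more, such as LBH589 replicate 3 with DMSO replicate 1 (0.32) and HL13 replicate 3 with LBH589 replicate 1 (0.29). Others were negative, such as LBH589 replicate 3 with DMSO replicate 2 (-0.19). What such arrays share was not tested. With the replicate block 4442 genes were called for HL13 against LBH589, against 5172 without it.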
